A study of Homo sapiens with 6 samples.

Results

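Transcripts of 10 genes of the NF-kB pathway were described in HEL cells, a human erythroleukemia line. The genes were chosen by name, and all 10 were found among the 31999 genes listed. They are 4 genes for NF-kB subunits (NFKB1, NFKB2, REL and RELB), 4 genes whose products act back on the pathway (NFKBIA, TNFAIP3, BIRC3 and TRAF1) and 2 genes for surface proteins (ICAM1 and CD83). Poly(A) RNA had been sequenced from HEL cells stably transduced with a lentiviral hairpin against TMIGD2 (shTMIGD2, 3 libraries) or with a non-targeting hairpin (shCtrl, 3 libraries), and both groups had been selected with puromycin. The value used here is 1 mean per gene over all 6 libraries, given as log2 CPM (the reads of a gene scaled to one fixed library total). A mean over both groups cannot show how the members differed between shTMIGD2 and shCtrl, and it carries no spread between libraries. Each level below is therefore a description of these HEL cells as a whole, and no difference in level was tested.

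NF-kB is a family of transcription factors that act as dimers and share a DNA-binding domain, the Rel homology domain. In resting cells IkB proteins hold the dimers in the cytoplasm. Signals from receptors for TNF, interleukin-1 or microbial products reach the IKK complex, which marks IkB for destruction and lets the dimers enter the nucleus. Several genes that NF-kB switches on encode its own subunits and inhibitors, which closes a feedback loop. In blood cells the pathway is best known for inflammation, survival and the activation of lymphocytes and dendritic cells.

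The dimers bind a short sequence, the kB site, and the sites found next to the 10 genes are shown first because they are what makes several of the genes feedback targets in the textbook account. Promoter windows from RefSeq (GRCh38.p14), which run from 250 bases before the start of a gene to 50 bases after it, were searched on both strands for the kB consensus, a motif of 10 bases. Windows were matched for 9 of the 10 genes, RELB being the one without a match. A consensus site stood in 5 of these 9 windows (55.6%), against 2075 of all 35116 windows (5.91%) and 932 of the 14292 windows of genes listed here (6.52%). The 10 genes had been picked as NF-kB genes, so this share describes their promoters and not the state of HEL cells. The stretches are printed 5′ to 3′ in the direction of the gene, with the bases of the sites in capitals and the coordinates of the whole stretch.
NFKB1, plus strand, chr4:102501300-102501329: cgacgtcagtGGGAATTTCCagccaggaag
NFKBIA, minus strand, chr14:35404811-35404840: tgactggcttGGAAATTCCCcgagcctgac
TNFAIP3, plus strand, chr6:137867188-137867217: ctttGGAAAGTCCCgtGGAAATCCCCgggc
REL, plus strand, chr2:60881518-60881546: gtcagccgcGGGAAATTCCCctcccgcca
BIRC3, first site, plus strand, chr11:102317275-102317304: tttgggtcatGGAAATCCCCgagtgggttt
BIRC3, second site, plus strand, chr11:102317339-102317368: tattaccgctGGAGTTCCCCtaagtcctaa

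All 8 sites of these 5 genes lay before the RefSeq start of the gene, and 6 of the 8 read as the consensus on the strand opposite to the gene. In 4 genes (NFKB1, NFKBIA, TNFAIP3 and REL) a site began within 100 bases of the start, at 49 bases for NFKB1 and at 81 for NFKBIA. TNFAIP3 had 2 sites, beginning 67 and 55 bases before its start. REL had 2 overlapping matches that began 47 and 46 bases before its start, 1 on each strand, so they form a single palindrome-like stretch. By GENCODE 44 this stretch lies in an annotated exon of REL, while the sites of the other 4 genes lie outside the gene as annotated there. The 2 sites of BIRC3 began farther away, 199 and 135 bases before the start.

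A stricter form of the motif (GGGA, any base, then TTTCC), every match of which is also a match of the consensus, was held by NFKB1, NFKBIA, TNFAIP3 and REL, which is 4 of 9 windows (44.4%) against 0.558% of all windows. NFKB1, NFKBIA and REL held it with the same 10 letters, read on the strand of the gene in NFKB1 and on the opposite strand in NFKBIA and REL. NFKB2, CD83, ICAM1 and TRAF1 had no consensus match in their windows, which says only that these letters do not occur in the bases searched. Of 18 other textbook targets of NF-kB, 15 had a window and 8 of these (53.3%) held the consensus. In the other lists of the pathway the consensus stood in 3 of 5 windows for IkB proteins and 3 of 8 for negative regulators, in 2 of 17 for adaptors, these 3 counts including genes of the 10, in 1 of 7 for ligands, in 0 of 5 for the IKK complex and related kinases and in 0 of 8 for receptors. These lists are too short for a 0 to be told from the 6.52% of listed genes.

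**Figure D1:**
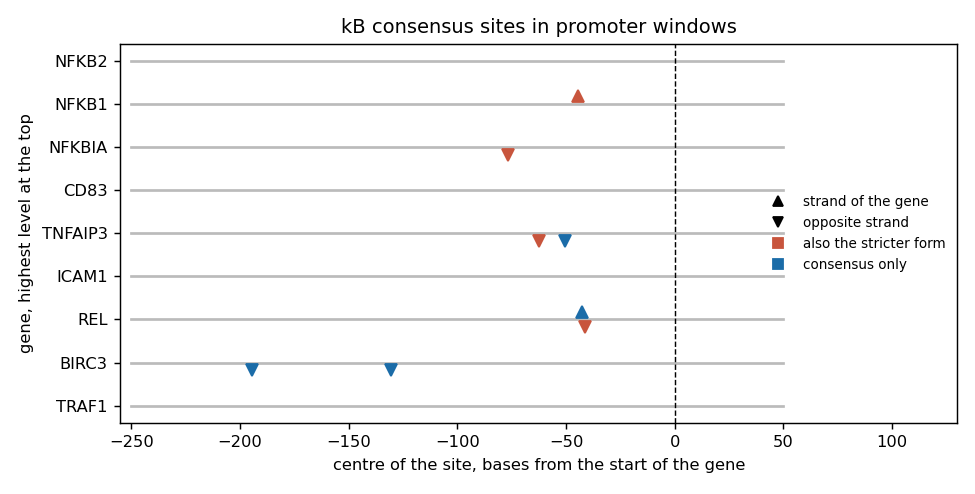
Positions of kB consensus sites in the 300-base promoter windows of 9 genes, ordered by transcript level with the highest at the top. The x axis gives the centre of each site in bases from the RefSeq start of the gene (dashed line), grey lines are the windows searched, triangles point up for the strand of the gene and down for the opposite strand, and red marks sites that also match the stricter form. All 8 sites lie before the start, and 4 genes have no site.

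Levels were next set beside the sites. Levels of different genes are compared per kb of transcript, as CPM divided by the length of the canonical transcript in kb. Among the 9 genes, those with a site ran from 14.8 CPM per kb (NFKB1) to 0.257 (BIRC3), and those without ran from 16.9 (NFKB2) to 0.174 (TRAF1). The 2 ranges overlapped almost completely. Over all genes listed with a window and a length, the median level was 1.65 on the log2 (CPM per kb) scale for the 932 genes with a consensus site and 1.59 for the 13349 without, and the middle 50% ran from -2.72 to 3.76 and from -2.71 to 3.96. The median GC content of the windows was 65.7% and 63.3%, and its part in these levels was not tested.

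The 10 genes spanned a 97.1-fold range of levels, from 16.9 CPM per kb for NFKB2 to 0.174 for TRAF1. Of the 10, 9 reached at least 1 CPM, that is 0 on the log2 scale, as did 43.8% of all genes listed and 69.0% of the protein-coding genes. Their median was 1.85 on the log2 (CPM per kb) scale, beside 0.28 for the 23563 genes with a length and 1.80 for the 16662 protein-coding genes. The 14000 genes that reached 1 CPM had a higher median, 3.09 over the 13001 of them with a length, and among these the median percentile of the 10 genes was 30.3, where among all genes it was 61.3. NFKB2, NFKB1 and NFKBIA stood at the top, then CD83, RELB, TNFAIP3, ICAM1 and REL, with BIRC3 and TRAF1 last. Neighbours in this order cannot be said to differ, since no spread between libraries goes with the means, and the smallest step, between NFKB2 and NFKB1, was 0.19 on the log2 scale.

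**Figure D2:**
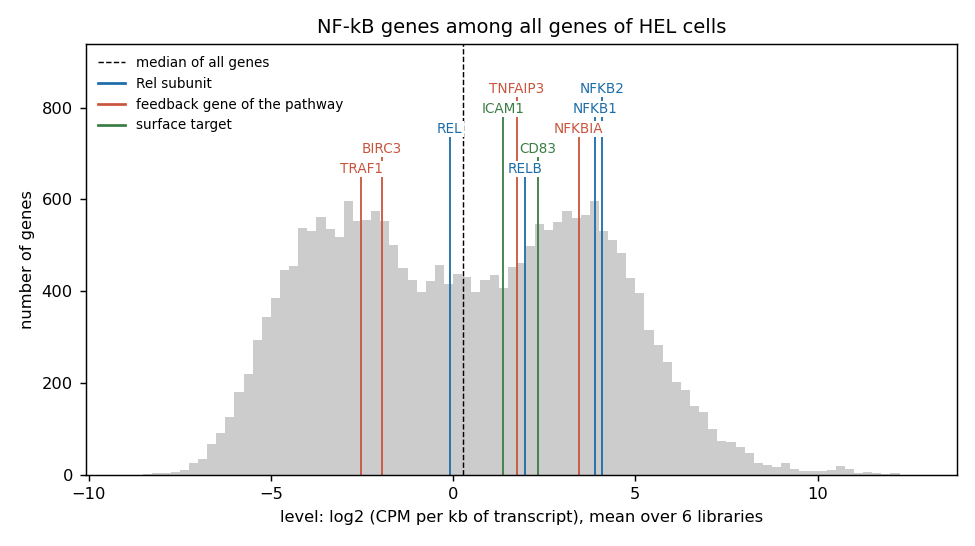
Levels of the 10 genes (coloured lines) among the 23563 genes with a length (grey histogram, number of genes per bin of 0.25 on the log2 scale). The x axis is log2 (CPM per kb of canonical transcript) as a mean over 6 libraries, and the dashed line is the median of all genes, 0.28. TRAF1, BIRC3 and REL lie below that median and the other 7 genes above it.

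Among the subunits, NFKB1 and NFKB2 were the most abundant of the 4. NFKB1 (ENSG00000109320, chromosome 4, 102501330 to 102617302 on the plus strand, GRCh38) encodes p105, the precursor of p50, which is the classic partner of RELA. Its mean log2 CPM was 5.91, that is 60.1 CPM or 14.8 CPM per kb over a canonical transcript of 4055 bases in 24 exons. NFKB2 (chromosome 10, 102394110 to 102402524, plus strand) encodes p100, the precursor of p52, which both restrains RELB and supplies its partner in the non-canonical pathway. Its mean log2 CPM was 5.67, or 16.9 CPM per kb over 3015 bases. The 2 precursor transcripts were thus close in level, with a ratio of NFKB1 to NFKB2 of 0.877. This ratio turned with the length used, to 0.420 with the union of all annotated exons and to 1.10 with the coding length, so which of the 2 was higher is not settled.

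RELB and REL encode subunits with a transactivation domain and lay lower than the precursors. RELB (chromosome 19, 45001461 to 45038192, plus strand) had a mean log2 CPM of 3.15, or 3.92 CPM per kb. The ratio of NFKB1 to RELB was 3.78 with the canonical transcript and 4.05 with the coding length, but only 1.30 with the union of exons. That of NFKB2 to RELB was 4.31, 3.70 and 3.09 under the same lengths. REL (chromosome 2, 60881491 to 60931612, plus strand), which encodes c-Rel, known mostly from lymphocytes, had a mean log2 CPM of 3.38. Its canonical transcript is long, 11108 bases of which 1761 are coding, so its level fell to 0.937 CPM per kb, below the median of all genes. In read numbers REL stood above RELB, with 10.4 and 8.85 CPM. Per kb it stood below RELB with the canonical transcript and the union of exons, and above it with the coding length, where the log2 levels were 2.56 and 2.35. RELA, the fifth subunit and no member of the group of 10, was the highest of the family, with a mean log2 CPM of 6.89 and 47.0 CPM per kb.

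Of the summed CPM per kb of the 5 subunits, RELA made up 56.2%, NFKB2 20.2%, NFKB1 17.7%, RELB 4.69% and REL 1.12%. Per kb of canonical transcript RELA, NFKB2 and NFKB1 thus made up most of the family. REL was the lowest with the canonical transcript and the union of exons, and RELB with the coding length and with none. The gap between RELA and REL was 50.2-fold per kb of canonical transcript, 35.7-fold with the union of exons and 12.1-fold with the coding length. RELA was higher than RELB by 11.99-fold, 7.34-fold and 14.0-fold under the same 3 lengths. Transcript levels say nothing of how much protein was made or of how much of it was in the nucleus.

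NFKBIA, the IkB alpha gene (chromosome 14, 35401079 to 35404749, minus strand), encodes the inhibitor that is destroyed and then made again within one round of NF-kB signalling. It had a mean log2 CPM of 4.09 and 10.9 CPM per kb over a short transcript of 1559 bases. NFKBIB, the gene for IkB beta, was higher, with 43.9 CPM per kb, 4.02-fold above NFKBIA per kb of canonical transcript and between 2.74-fold and 4.49-fold above it under the other lengths and with none. The other IkB genes with a value were NFKBIE with 7.18 CPM per kb, BCL3, an atypical nuclear IkB protein, with 6.92, and NFKBIZ, another nuclear one, with 5.45. NFKBIA stood behind NFKBIB alone per kb of canonical transcript, and behind NFKBIB and NFKBIE with the union of exons. NFKBID had no value in the table.

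TNFAIP3 (chromosome 6, 137867214 to 137883314, plus strand) encodes A20, an enzyme that edits ubiquitin chains and shuts signalling down. Its mean log2 CPM of 3.96 was close to the 4.09 of NFKBIA, but over a transcript of 4665 bases it came to 3.34 CPM per kb. Among the 9 negative regulators listed it was the second lowest, above ZC3H12A (1.62 CPM per kb), which encodes an RNase that degrades inflammatory transcripts. The highest were TNIP1 (41.7) and TNIP2 (23.1), which encode partners of A20. All 9 reached 1 CPM, and the median of the list was 2.64 on the log2 (CPM per kb) scale.

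BIRC3 and TRAF1 were the least abundant of the 10 genes under every length used and with none. BIRC3 (chromosome 11, 102317484 to 102339403, plus strand) encodes cIAP2, a ubiquitin ligase of the TNF receptor complex. It had a mean log2 CPM of 0.82, that is 1.77 CPM, or 0.257 CPM per kb over 6877 bases. TRAF1 (chromosome 9, 120902393 to 120929173, minus strand) encodes an adaptor of the same complex. It had a mean log2 CPM of -0.40, or 0.174 CPM per kb over 4351 bases, and was the only one of the 10 below 1 CPM, with 0.757. Both were above the floor of the table, where the lowest mean log2 CPM was -3.76 and 7079 genes lay within 0.5 of it. Their means rest on the fewest reads of the 10.

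BIRC2 and TRAF2, close relatives of BIRC3 and TRAF1, were far higher, and they were chosen for naming after their values were seen. BIRC2, the cIAP1 gene, stood at 17.0 CPM per kb, 66.2-fold above BIRC3, and at 35.4-fold above it with the coding length. TRAF2 stood at 15.6 CPM per kb, 89.4-fold above TRAF1, and at 38.7-fold above it with the coding length. BIRC2 lies on chromosome 11 next to BIRC3. Within the list of 19 signalling adaptors, 17 reached 1 CPM and the median was 3.01 on the log2 (CPM per kb) scale. TRAF1 and RNF31 (0.114 CPM per kb) were the lowest of that list, and IRAK1 (53.3) and SHARPIN (44.1) the highest. Among the 23563 genes with a length, no exon of another gene lies over the canonical transcripts of the 10 genes. The genes listed without a length were not checked. Whether overlap with another gene lowered the count of RNF31 was not tested.

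ICAM1 and CD83 are targets whose products sit on the cell surface. ICAM1 (chromosome 19, 10271093 to 10286615, plus strand) encodes the ligand of leukocyte integrins. It had a mean log2 CPM of 2.95 and 2.598 CPM per kb. CD83 (chromosome 6, 14117256 to 14136918, plus strand), known as a marker of mature dendritic cells, had a mean log2 CPM of 3.53 and 4.98 CPM per kb. CD83 was thus above ICAM1 per kb, with a ratio of ICAM1 to CD83 of 0.522 that stayed under 1 with the union of exons (0.460), the coding length (0.256) and no length (0.665). The promoter window of CD83 stood out in base composition, with a GC content of 37.0% and 6 CpG pairs, where the windows of the other 8 genes had between 53.3% and 79.0% and at least 15.

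The wider set of direct targets reached down to the floor of the table. Of 28 targets, the 10 genes included, 27 had a value and 17 of these reached 1 CPM. The median of the 27 was -0.09 on the log2 (CPM per kb) scale, and of the 17 targets outside the group of 10 it was -0.69. Per kb of canonical transcript NFKB2 and NFKB1 were the 2 highest of all 27. This rank turned with the length: with the union of exons NFKB1 (1.94 on the log2 scale) fell below genes such as CD44 (2.42) and NFKBIA (2.33), and with no length SOD2 was first with 66.3 CPM. CD44 and SOD2 were named after their values were seen. The 2 lowest were VCAM1 and SELE, adhesion molecules of activated endothelium, both with a mean log2 CPM of -3.76, at the floor of the table. Of these other 17, 8 reached 1 CPM (47.1%), against 9 of the group of 10, 43.8% of all genes and 69.0% of the protein-coding genes.

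**Figure D3:**
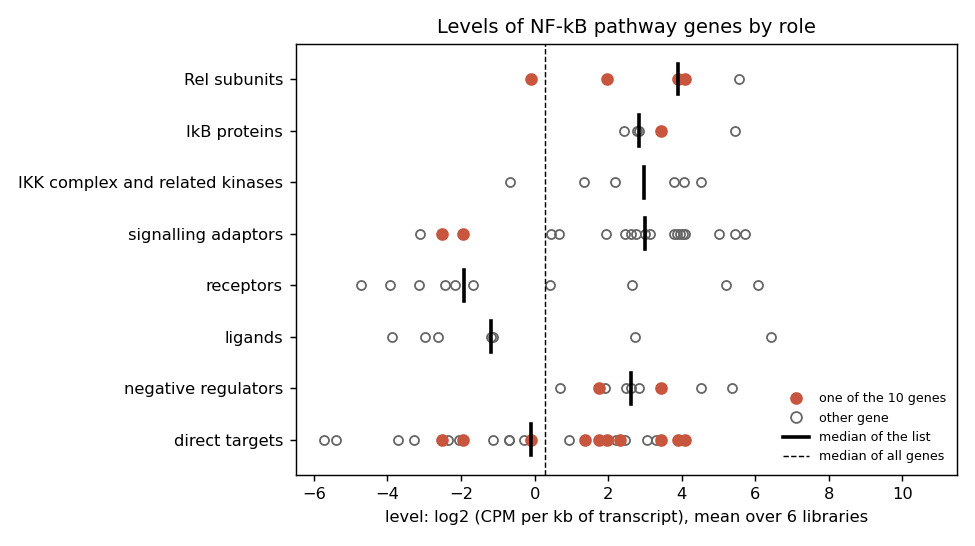
Levels of NF-kB pathway genes by role, as log2 (CPM per kb of canonical transcript) on the x axis, mean over 6 libraries. Each circle is a gene, filled for the 10 genes, bars are medians of the lists and the dashed line is the median of all genes; a gene can stand in more than one list. The medians of subunits, IkB proteins, kinases, adaptors and negative regulators lie between 2.64 and 3.89, and those of receptors and ligands at -1.92 and -1.20.

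Upstream of the 10 genes, the kinases were expressed and the receptors and ligands were uneven. Among the IKK genes, IKBKB stood at 16.7 CPM per kb, CHUK at 13.8 and the regulatory subunit IKBKG at 4.52. The related kinases TBK1 and IKBKE had 23.1 and 2.53, and MAP3K14, the NIK gene of the non-canonical pathway, was the lowest of the 6 with 0.630. Of 10 receptors, 6 reached 1 CPM. LTBR, the lymphotoxin beta receptor, which signals through NIK, was the highest with 67.0 CPM per kb, and TNFRSF1A, the main TNF receptor, followed with 37.0. TNFRSF11A (0.0382) and TNFRSF8 (0.0658) were the lowest. With no length they had 0.311 and 0.248 CPM, so their order turned with the length, and these means rest on few reads.

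Of 8 ligands, 7 had a value and 3 of these reached 1 CPM. IL1B, the interleukin-1 beta gene, was by far the highest with 85.9 CPM per kb, above each of the 10 genes. LTB, which forms the ligand of LTBR together with lymphotoxin alpha, followed with 6.69. CD40LG (0.0682) and LTA (0.126) were the lowest. Their mean log2 CPM of -2.98 and -2.48 was not far above the floor of the table (-3.76), so these means rest on few reads.

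The order of the 10 genes depended on the length by which CPM was divided. NFKB2, NFKB1, NFKBIA and CD83 were the first 4 under all 3 lengths, in changing order, and BIRC3 and TRAF1 the last 2. With the union of exons NFKB1 dropped to the fourth place, since 15679 bases of the gene are annotated as exon in some transcript. With the coding length REL rose from the eighth place to the sixth. The median of all genes itself moved by -0.44 on the log2 scale with the union of exons, and by 1.23 with the coding length over the 16719 genes that have one. Of the 10 genes NFKB1 moved most with the union of exons, by -1.95, and CD83 least, by -0.03.

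**Figure D4:**
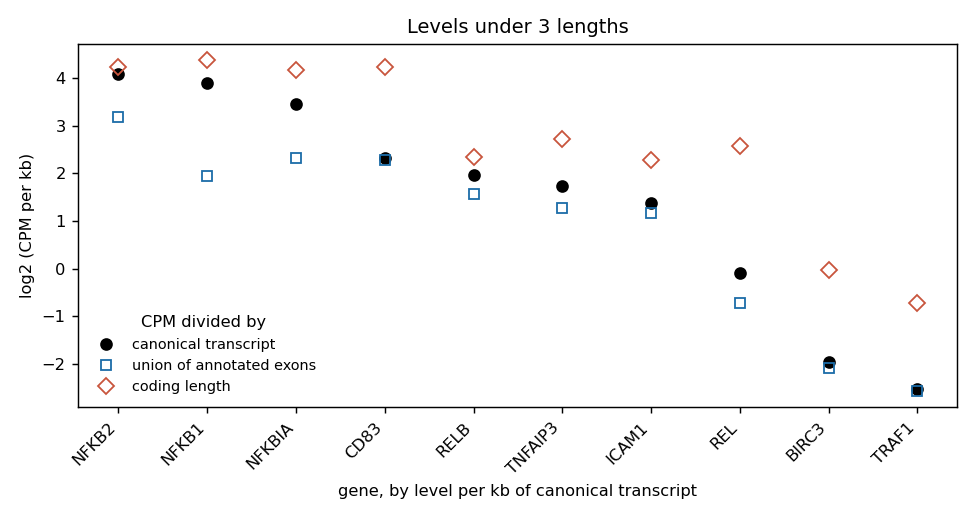
Levels of the 10 genes under 3 lengths, as log2 (CPM per kb) on the y axis and the genes ordered on the x axis by level per kb of canonical transcript. Filled circles divide CPM by the canonical transcript, squares by the union of annotated exons and diamonds by the coding length. BIRC3 and TRAF1 are lowest under each length, and NFKB1 and REL show how far the length can move a gene.

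The identity of the cells was checked on marker genes in the same means. All 9 markers of the erythroid and megakaryocytic lineages were high, from 19.0 CPM per kb for EPOR to 1440 for HBG1, with GATA1 at 171, KLF1 at 122, TAL1 at 91.2, HBG2 at 260, ITGA2B at 428, ITGB3 at 23.4 and NFE2 at 301. HBG1 and HBG2 are near-identical copies, so the split of reads between them is uncertain. The median of the 9 markers was 7.42 on the log2 (CPM per kb) scale, above the level of each of the 10 NF-kB genes. Since NF-kB target genes are also marks of other blood and vessel cells, lists for these were read beside them. Of 7 monocyte, macrophage or dendritic markers, 5 had a value and 2 reached 1 CPM, with LYZ the highest at 14.2 CPM per kb and CD14 at 0.116. Of 5 T cell markers 2 had a value, with CD2 the highest at 4.95, and of 5 B cell markers 4 had a value, with CD79A the highest at 4.55. Of 5 endothelial markers 4 reached 1 CPM. PECAM1, which megakaryocytic cells also express, was the highest at 22.3 CPM per kb, then KDR at 6.38, TEK at 2.73 and CDH5 at 0.306. VWF was below 1 CPM, with 0.153. Of 5 fibroblast markers 1 reached 1 CPM, PDGFRB at 0.518 CPM per kb. Whether such cells or a mixed state of HEL cells contributed to CD83, ICAM1 or REL was not tested.

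TMIGD2, the gene targeted by the hairpin, had a mean log2 CPM of 4.08 over the 6 libraries, or 14.0 CPM per kb, and this mean does not check the knockdown. The depth of each library is unknown from the means, so no interval or detection limit was computed.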

How the data were processed

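RNA of 3 shCtrl and 3 shTMIGD2 HEL libraries, labelled as biological replicates, was made with a directional poly(A) kit. Per the study's methods, the authors aligned reads to hg38 with STAR 2.6.1b and counted fragments per gene with HTSeq 0.6.1 on a refSeq annotation. Whether counting used strand is not given in the sources used here. The submitters' processing notes also list DESeq2 and edgeR. The authors deposited a table with 1 row per gene, whose mean log2 CPM over all 6 libraries was made by them and is used here. Its 4 other columns hold the authors' own comparison of the groups (fold change, F statistic, p-value and adjusted p-value) and were not used. No column holds a value per library, so the planned tests of shTMIGD2 against shCtrl were not run.

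Of 31999 gene names, 22987 matched GENCODE 44 (GRCh38, the same assembly as hg38) by symbol and 576 by an older symbol in RefSeq, and 24 were dates made by a spreadsheet. CPM was divided by the length in kb of the canonical transcript (MANE Select where marked). Promoter windows came from RefSeq. The kB consensus is GGG, a purine, any base, A or T, a pyrimidine, a pyrimidine and CC. Scripts (Python 3.11.15, pandas 2.3.3) were tested on made-up values first.

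The 10 genes and the lists, written from general knowledge, were chosen with earlier results of these data known. Named genes are the 10, every gene of the lists of subunits, IkB proteins and kinases, TMIGD2, the 2 highest and 2 lowest of the other pathway lists, all erythroid and megakaryocytic markers and the highest marker of each other cell type. CD14, BIRC2, TRAF2, CD44, SOD2, KDR, TEK, CDH5 and VWF were added after their values were seen. 1 marker gene of the list is not reported here.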

Additional observations from a re-analysis of the deposited data

How the results depend on the processing

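The median level of the 10 genes, 1.85 on the log2 (CPM per kb) scale, was 1.42 with the union of annotated exons and 2.64 with the coding length. Of the 10 places in the order by level, 7 were kept with the union of exons, 2 with the coding length and 3 with no division by length. The median percentile of the 10 genes among all genes, 61.3, was 30.3 among genes that reached 1 CPM, and 71.9 on mean log2 CPM with no length. With the union of exons the medians of the lists were 1.94 for subunits, 2.33 for IkB proteins, 1.68 for the IKK complex and related kinases, 2.24 for adaptors, -2.26 for receptors, -1.44 for ligands, 2.33 for negative regulators and -0.56 for direct targets. These moves follow from the lengths and from the genes kept. The stricter motif left 4 of the 5 genes with a site.

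No paired analysis was possible because the table has no value per library. For the same reason the alternatives with DESeq2, other size factors, no filter and each library left out were not run. Depth limits BIRC3 and TRAF1 most, and how far could not be computed from means.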
